A study of Homo sapiens with 6 samples.

Results

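The epidermal growth factor (EGF) family ligands considered here were AREG, EREG, HBEGF, TGFA, NRG1 and BTC, followed through a knockdown of the EWSR1::ATF1 fusion, written EA1, in SU-CCS-1 cells. They were taken by gene name from a table of raw RNA-seq counts of 18118 genes in 6 libraries. Of the 6 named ligands, 5 had a row, and EREG was not analysed here. Every gene with a row reached at least 6 counts in some library, so a missing row may stand for low counts. The set was chosen by the control and knockdown values of these same libraries, so the ligand values are given as a description, without p-values. The number of ligands called against control by edgeR is printed once beside the share of all genes.

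SU-CCS-1 is an established human clear cell sarcoma cell line, and this tumor is driven by EA1, in which the N-terminal part of EWSR1 is joined to the DNA-binding region of ATF1. The libraries fell into 3 groups of 2: a control siRNA labelled siNeg1, and a pair of siRNAs against EA1 labelled siEA1-1 and siEA1-2, drawn in the plots as EA1 siRNA 1 and EA1 siRNA 2. The methods, which describe only 1 siRNA against EA1, give transfection with 5 pmol of siRNA and collection 48 h later. All libraries came from the same cell line, which carries EA1 in the control group as well. The labels do not say that the 2 libraries of a group were separate cultures, and p-values then measure only the spread between these samples, which may be technical. Both knockdown comparisons used the same 2 control libraries.

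Each library held between 5942808 and 7599305 counts, so that 3 counts, taken as the floor of detection, were worth 0.385 to 0.533 CPM. CPM are counts scaled to a common library total after TMM scaling, a scaling that matches the bulk of genes between libraries. Intervals and floors cover counting error only. ATF1, the 3′ partner of the fusion, had 84.6 ± 3.71 CPM in the control group (SD, n = 2), 20.7 ± 0.659 with siEA1-1 and 22.0 ± 0.426 with siEA1-2. EWSR1 had 215 ± 25.1, 199 ± 5.52 and 209 ± 16.1 CPM in the same order. Its counts, like those of ATF1, include reads of the unrearranged gene. Less fusion transcript and less unrearranged ATF1 transcript cannot be told apart in these counts. Of 14571 genes tested with edgeR, positive log2FC being higher in the control group, 20.3% were called higher and 19.9% lower in control than with siEA1-1 at an adjusted p under 0.05. With siEA1-2 these shares were 18.2% and 18.5%, and with each of the siRNAs they were 15.1% and 14.8%.

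EGF family ligands are made as membrane-anchored precursors, and cell-surface proteases such as ADAM17 and ADAM10 cut them free to act on the same or neighboring cells. AREG and TGFA bind EGFR, HBEGF and BTC bind EGFR and ERBB4, and NRG1 binds ERBB3 and ERBB4. Bound receptors pair and pass the signal through adaptor proteins to RAS, RAF and ERK. ATF1 and its relative CREB1 bind the cAMP response element (CRE), and signals that raise cAMP are known to act on genes such as AREG through such an element.

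The sequences upstream of AREG, HBEGF and TGFA are shown because they carry, or lack, the CRE letters that the DNA-binding region of EA1 recognizes. Each is the 250 bases before an annotated start in RefSeq (build GRCh38.p14), written on the strand of the gene, with CRE letters in capitals. The RefSeq starts of TGFA lie inside the GENCODE span of the gene given with its values, so the TGFA sequence is upstream of the RefSeq start only.
AREG, chr4:74444886-74445135, plus strand: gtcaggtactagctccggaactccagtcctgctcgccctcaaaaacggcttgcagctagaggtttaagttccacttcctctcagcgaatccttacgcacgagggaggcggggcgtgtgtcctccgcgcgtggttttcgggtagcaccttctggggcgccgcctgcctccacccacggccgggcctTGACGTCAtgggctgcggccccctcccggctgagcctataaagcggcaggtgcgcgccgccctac
TGFA, chr2:70553827-70554076, minus strand: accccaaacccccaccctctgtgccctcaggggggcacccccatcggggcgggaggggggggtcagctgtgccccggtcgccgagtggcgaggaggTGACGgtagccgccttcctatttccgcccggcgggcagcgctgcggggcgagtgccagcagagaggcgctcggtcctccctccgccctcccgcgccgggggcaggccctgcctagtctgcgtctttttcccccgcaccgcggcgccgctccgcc
HBEGF, chr5:140346604-140346853, minus strand: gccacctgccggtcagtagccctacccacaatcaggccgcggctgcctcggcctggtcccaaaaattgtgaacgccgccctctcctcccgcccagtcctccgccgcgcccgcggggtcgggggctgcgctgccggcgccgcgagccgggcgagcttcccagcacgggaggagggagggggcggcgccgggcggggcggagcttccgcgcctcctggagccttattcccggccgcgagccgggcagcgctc

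The whole CRE, TGACGTCA, was found once, in the AREG sequence from position -65 to -58 relative to the start (chr4:74445071-74445078). It occurred in 1.65% of 35116 upstream sequences of this length. The CRE half-site TGACG, searched on both strands and contained in the whole CRE, was found in the TGFA sequence from -154 to -150 and in 21.2% of all sequences. The spaced form TGANNTCA, which also takes in TGACGTCA and occurred in 10.1% of sequences, was found only at the AREG CRE. The AP-1 letters TGAGTCA, held by 4.20% of sequences, were found in none of the 5 sequences examined, which covered 4 of the 5 ligands and included a second start of TGFA. The HBEGF and BTC sequences and that of the second TGFA start held none of these letters. A match is a description of the sequence and not of binding, and no match says only that the letters are not in this window.

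**Figure D1:**
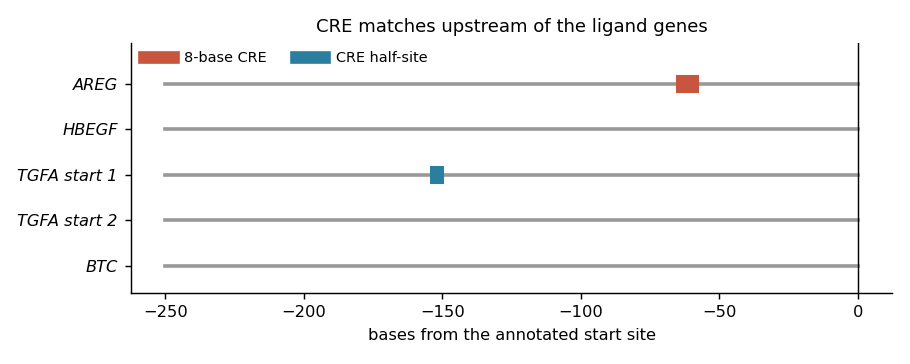
Position of CRE letters in the 250 bases before the annotated starts of the ligand genes, with bases from the start on the x axis and 1 line for each start. The whole CRE lies at -65 to -58 before AREG and a half-site at -154 to -150 before the first start of TGFA.

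HBEGF, the heparin-binding ligand, was the most abundant of the ligands. Its gene (ENSG00000113070, chr5:140332843-140346603, minus strand, hg38) had 479 and 513 counts in the control libraries, 48 and 39 with siEA1-1 and 71 and 66 with siEA1-2. These correspond to 71.5 and 65.8 CPM in control, 6.81 and 6.41 CPM with siEA1-1, and 12.6 and 9.25 CPM with siEA1-2. Both control libraries stood far above all 4 knockdown libraries, and the siEA1-2 libraries stood above those of siEA1-1. The group means were 68.7 ± 4.05, 6.61 ± 0.285 and 10.9 ± 2.38 CPM (SD, n = 2). The HBEGF log2FC was 3.37 (SE 0.19) against siEA1-1 and 2.66 (SE 0.18) against siEA1-2.

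AREG, amphiregulin, was detected only in the control libraries. Its gene (ENSG00000109321, chr4:74445136-74455005, plus strand) had 21 and 17 counts there, or 3.14 and 2.18 CPM, and 0 counts in all 4 knockdown libraries. The control mean was 2.66 ± 0.676 CPM (SD, n = 2). Set against the floor of 3 counts per library, AREG was at least 5.79-fold higher in control than with siEA1-1 and at least 5.58-fold higher than with siEA1-2. These bounds are limited by depth, because a count of 0 still allows a level up to that floor.

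TGFA, transforming growth factor alpha, was lower after knockdown by a smaller amount. Its gene (ENSG00000163235, chr2:70447284-70554193, minus strand) had 38 and 54 counts in control, 18 and 28 with siEA1-1, and 16 and 22 with siEA1-2. In CPM these were 5.68 and 6.93, then 2.55 and 4.60, then 2.84 and 3.08. Both control libraries lay above all 4 knockdown libraries, the knockdown groups overlapped each other, and the second library of siEA1-1 lay nearest to the control group. The means were 6.30 ± 0.886, 3.58 ± 1.45 and 2.96 ± 0.170 CPM (SD, n = 2). The TGFA log2FC was 0.83 (SE 0.38) against siEA1-1 and 1.08 (SE 0.39) against siEA1-2. Without replicate 1 of siEA1-1 the first value was 0.45, and without replicate 2 it was 1.32.

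NRG1, neuregulin 1, is the ligand here that acts through ERBB3 and ERBB4. Its gene (ENSG00000157168, chr8:31639222-32855666, plus strand) had 86 and 89 counts in control, 10 and 1 with siEA1-1, and 5 and 4 with siEA1-2. In CPM these were 12.8 and 11.4, then 1.42 and 0.164, then 0.888 and 0.560. Both control libraries lay well above all knockdown libraries, and among the knockdown groups the wider spread was between the 2 libraries of siEA1-1. The means were 12.1 ± 1.01, 0.792 ± 0.887 and 0.724 ± 0.232 CPM (SD, n = 2). The NRG1 log2FC was 3.84 (SE 0.54) and 4.06 (SE 0.56), and the first value was 6.05 without replicate 1 of siEA1-1, which leaves 1 count in that group, and 3.10 without replicate 2.

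BTC, betacellulin, was the ligand with the fewest counts in control. Its gene (ENSG00000174808, chr4:74744759-74794523, minus strand) had 10 and 5 counts in control, 0 and 4 with siEA1-1, and 4 and 1 with siEA1-2. In CPM these were 1.49 and 0.641, then 0 and 0.657, then 0.710 and 0.140. The control and knockdown libraries overlapped. BTC did not pass the filter on low counts, and the pooled control counts were 3.40 times those of siEA1-1 relative to the TMM-scaled library sizes (95% interval 1.08 to 14.1) and 2.64 times those of siEA1-2 (0.913 to 9.30). These intervals leave out the spread between replicates, and no difference of BTC is read from them.

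**Figure D2:**
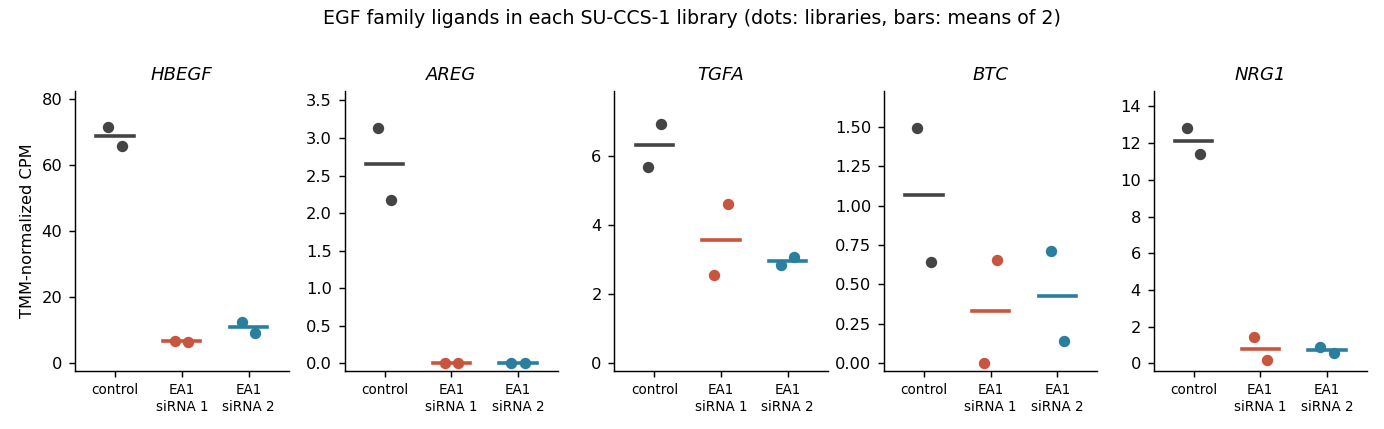
TMM-normalized CPM of each ligand in the 6 libraries, with 1 panel and 1 linear y axis that includes 0 for each gene, points for libraries and bars for group means. Both control libraries of HBEGF, AREG, TGFA and NRG1 lie above all 4 knockdown libraries, whereas those of BTC overlap them.

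Of the 5 ligands with a row, 4 passed the filter, and AREG and NRG1 passed it only through their control libraries. The number called higher in control was 3 of 4 with siEA1-1, against 20.3% of all genes, and 4 of 4 with siEA1-2, against 18.2%. With each siRNA it was 3 of 4, against 15.1%, and nothing is read from these counts because the same comparison chose the set. Both control libraries lay above all 4 knockdown libraries for 4 of the 5 ligands. The same was true of 27.3% of all genes tested, and the opposite order of 28.1%. In bulk samples such as these, fewer cells with a transcript and less transcript per cell cannot be told apart.

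**Figure D3:**
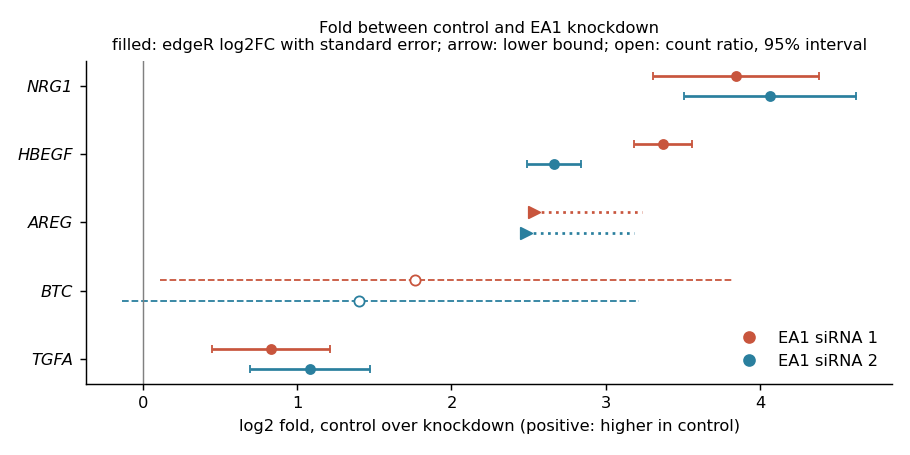
Difference between control and knockdown for each ligand and EA1 siRNA on a log2 scale, where positive values are higher in control. HBEGF (3.37 and 2.66), TGFA (0.83 and 1.08) and NRG1 (3.84 and 4.06) are edgeR log2FC with standard errors, AREG is a lower bound against the floor of 3 counts, and BTC is a ratio of pooled counts with its 95% interval.

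The siRNAs were also set against each other. siEA1-2 minus siEA1-1 was 0.71 (SE 0.22) on the log2 scale for HBEGF, -0.25 (SE 0.42) for TGFA and -0.22 (SE 0.78) for NRG1. For TGFA and NRG1 this difference was smaller than its error, and AREG was at 0 with both siRNAs. None of the ligands tested, HBEGF included, was called by edgeR between the siRNAs. The signs for TGFA and NRG1 did not hold in every run with 1 library left out. The NRG1 log2FC of control against siEA1-1 then reached 6.05, and that against siEA1-2 at most 4.41. For TGFA these values were 1.32 and 1.22. Of all genes tested, 2.24% were called between the siRNAs, 210 higher and 116 lower with siEA1-2, and with the replicate number as a block these counts were 530 and 323. Leaving out 1 library gave 20 to 471 higher and 13 to 317 lower, the lowest without replicate 2 of siEA1-1 and the highest without replicate 2 of siEA1-2.

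Levels of the ligands were compared with each other per kilobase of exon. In the control group the order was HBEGF (23.0 ± 1.35 CPM per kb), AREG (1.62 ± 0.411), TGFA (1.28 ± 0.180), NRG1 (0.568 ± 0.0472) and BTC (0.402 ± 0.227), each with n = 2. The control libraries of AREG (1.91 and 1.33) and TGFA (1.15 and 1.41) overlapped, as did those of NRG1 (0.601 and 0.534) and BTC (0.563 and 0.242). HBEGF stood above every other ligand and TGFA above NRG1 in both libraries. The NRG1 gene has many alternative first exons, and dividing by all its exon bases (21372) lowers its value relative to the shorter HBEGF (2990) and AREG (1642). In CPM, without division by length, the order below HBEGF turned over, with NRG1 at 12.1, TGFA at 6.30, AREG at 2.66 and BTC at 1.07.

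After knockdown HBEGF remained the most abundant ligand per kilobase, at 2.21 CPM per kb with siEA1-1 and 3.65 with siEA1-2. TGFA came next at 0.728 and 0.602 CPM per kb, and BTC (0.124 and 0.160) and NRG1 (0.0370 and 0.0339) were lower still. The libraries of BTC and NRG1 overlapped with siEA1-1, where BTC was at 0 and NRG1 at 0.0664 CPM per kb in replicate 1, and so the order of these ligands was not settled. The summed level of the 5 ligands was 28.2 and 25.5 CPM per kb in control, 2.86 and 3.33 with siEA1-1, and 5.10 and 3.80 with siEA1-2. HBEGF made up 85.0% and 86.2% of that sum in control, 79.5% and 64.3% with siEA1-1, and 82.6% and 81.4% with siEA1-2. The TGFA share was 4.10% and 5.52% in control and between 11.3% and 28.1% in the knockdown libraries. HBEGF was more than any other ligand in every library, and the share of TGFA was higher in every knockdown library than in either control library.

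The genes whose pattern over the 6 libraries was most like that of a ligand were found by the root mean square difference of log2 CPM, centred on the control mean. For HBEGF these were MAFK (0.190), INSM1 (0.199) and ERFE (0.216). For AREG they were BMP2 (0.184), CTH (0.209) and RUNX2 (0.230), for TGFA PRSS12 (0.139), WDR4 (0.145) and MTCP1 (0.147), and for NRG1 RHCG (0.395), WSCD2 (0.397) and TFAP2C (0.415). The added count of 2 used for these log2 CPM limits how low AREG can fall in the knockdown libraries, and so it bears on its neighbors in this measure. It also bears on INSM1, with 0, 0, 1 and 1 counts in the knockdown libraries, and on WSCD2, with 7, 0, 1 and 4.

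The other EGF family ligands with a row were low in all libraries and none was called in either comparison. EGF, the founding ligand of EGFR, had 10 to 19 counts per library and a log2FC of -0.42 (SE 0.53, edgeR adjusted p = 0.569) and -0.22 (SE 0.54, adjusted p = 0.791). NRG2, a relative of NRG1, had 26 and 20 counts in control and 5 to 13 in the knockdown libraries. Its log2FC was 1.31 (SE 0.57, edgeR adjusted p = 0.0894) and 0.93 (SE 0.55, adjusted p = 0.220). NRG3 had 0 to 9 counts and NRG4 had 2 to 9 counts, and both were below the filter.

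None of the 3 ERBB receptors tested was called higher in control, and 1 was called lower with each siRNA. With each siRNA 15.1% of all genes were called higher and 14.8% lower. EGFR, the receptor of HBEGF, AREG and TGFA, had 28.7 and 26.2 CPM in control, 21.9 and 24.3 with siEA1-1, and 19.0 and 21.9 with siEA1-2. Its log2FC of 0.25 (SE 0.16, edgeR adjusted p = 0.256) and 0.42 (SE 0.17, adjusted p = 0.0688) did not pass the test. ERBB2, the partner receptor without a known ligand, had 17.6 and 18.1 CPM in control, 36.3 and 41.1 with siEA1-1, and 28.4 and 28.2 with siEA1-2. It was lower in control in both comparisons (log2FC -1.11, SE 0.15, edgeR adjusted p = 0.000144, and -0.66, SE 0.16, adjusted p = 0.00597).

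ERBB3, the receptor that binds NRG1, had 170 and 229 CPM in control, 584 and 696 with siEA1-1, and 235 and 285 with siEA1-2. The libraries of siEA1-1 stood above the other 4, and both libraries of siEA1-2 lay above those of the control group. Its log2FC was -1.68 (SE 0.16, edgeR adjusted p = 8.69e-06) against siEA1-1 and -0.38 (SE 0.15, adjusted p = 0.0742) against siEA1-2. The difference between the siRNAs was itself called (-1.30, SE 0.15, edgeR adjusted p = 0.00246). With the replicate number as a block 2 receptors in place of 1 were called lower in control with each siRNA. The block also raised such calls among all genes, from 2157 to 2405. ERBB4 had 0 and 6 counts in control and 6 to 11 in the knockdown libraries, and was not tested.

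**Figure D4:**
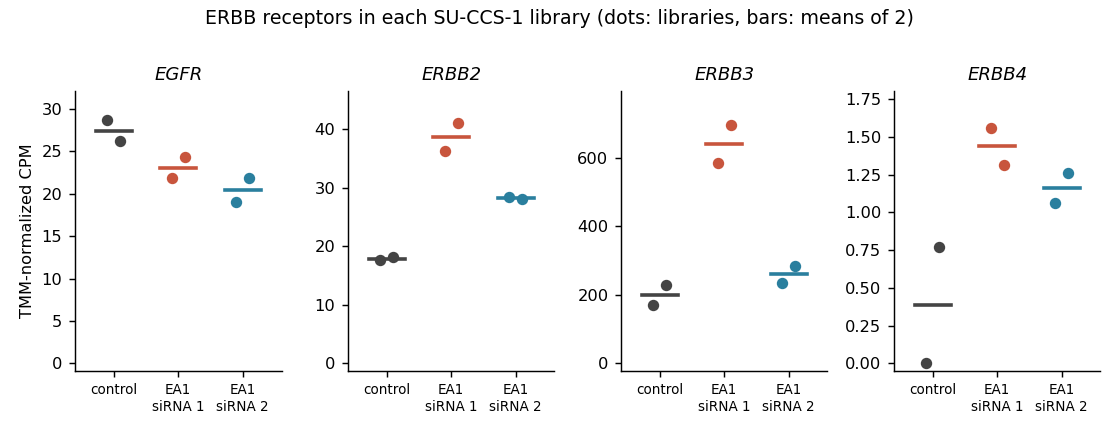
TMM-normalized CPM of the ERBB receptors in the 6 libraries, with 1 panel and 1 linear y axis that includes 0 for each gene, points for libraries and bars for group means. ERBB2 is lower in both control libraries than in all knockdown libraries, ERBB3 is highest with siEA1-1 (584 and 696 CPM), and EGFR was not called in either comparison.

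Of 11 genes of ligand shedding and maturation tested, 1 was called higher and 3 lower in control with each siRNA, against 15.1% and 14.8% of all genes, and the list's median log2FC was -0.16 and 0.18. ADAM10, a sheddase, was lower in control (log2FC -0.47, SE 0.10, edgeR adjusted p = 0.00366, and -0.52, SE 0.10, adjusted p = 0.00222). TIMP3, an inhibitor of such proteases, had 231 ± 12.0 CPM in control, 754 ± 185 with siEA1-1 and 795 ± 23.4 with siEA1-2 (SD, n = 2), with a log2FC of -1.71 (SE 0.15) and -1.78 (SE 0.15). BACE1, a protease that can cut NRG1, was lower in control by a log2FC of -0.81 (SE 0.17) and -0.71 (SE 0.18). RHBDF2, which carries ADAM17 to the surface, was higher in control (0.75, SE 0.20, edgeR adjusted p = 0.0103, and 0.55, SE 0.20, adjusted p = 0.0467), a call that DESeq2 and the fit of only the 4 libraries compared did not make with each siRNA. The 3 calls lower in control fell to 1 without replicate 2 of the control group. ADAM17 itself, the main sheddase of AREG, HBEGF and TGFA, was not called (-0.16, SE 0.10, edgeR adjusted p = 0.215, and 0.18, SE 0.10, adjusted p = 0.194).

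FRMD8 and ADAM15 differed between the siRNAs. FRMD8, which keeps the ADAM17 complex at the surface, had 108 ± 8.58 CPM in control, 115 ± 15.7 with siEA1-1 and 66.9 ± 6.88 with siEA1-2 (SD, n = 2). Its log2FC was -0.08 and 0.69, and the difference between siRNAs was -0.78 (SE 0.13, edgeR adjusted p = 0.0119). ADAM15, another protease of this family, had a difference of -0.55 (SE 0.13, edgeR adjusted p = 0.0482), with log2FC of 0.15 and 0.70. Leaving out any library but replicate 2 of siEA1-2 ended the ADAM15 call, and leaving out replicate 2 of siEA1-1 ended that of FRMD8 (adjusted p = 0.197).

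Proteins that bind the ligands at the surface were mixed, with 2 of 6 called higher and 1 lower in control with each siRNA, against 15.1% and 14.8% of all genes, and a list median of 0.32 and 0.01. SDC2, a syndecan that carries heparan sulfate, was higher in control by a log2FC of 1.67 (SE 0.11, edgeR adjusted p = 8.86e-07) and 1.66 (SE 0.11, adjusted p = 1.12e-06). SDC1, another syndecan, was higher by 0.80 (SE 0.25, edgeR adjusted p = 0.0243) and 1.01 (SE 0.26, adjusted p = 0.00897). GPC1, a glypican, was lower in control (-0.63, SE 0.14, edgeR adjusted p = 0.00461, and -0.47, SE 0.15, adjusted p = 0.0257), a call lost with DESeq2. Of the 2 calls higher in control, 1 was left without replicate 2 of the control group or without replicate 1 of siEA1-1.

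Among 9 genes of receptor inhibition and turnover, grouped as inhibitors below, 1 was called higher and 2 lower in control with each siRNA. The calls lower were 3 with the replicate block. Of all genes 15.1% were called higher and 14.8% lower, and the list median was -0.16 and -0.18. ERRFI1, a feedback inhibitor of EGFR, was higher in control by 0.89 (SE 0.25, edgeR adjusted p = 0.0142) and 0.69 (SE 0.25, adjusted p = 0.0457), a call lost with DESeq2 and in the fit of only the 4 libraries compared. LRIG1, which promotes receptor breakdown, was lower in control by a log2FC of -0.90 (SE 0.20, edgeR adjusted p = 0.00436) and -1.02 (SE 0.20, adjusted p = 0.00222). CD82, a tetraspanin, was also lower in control (-1.56, SE 0.53, edgeR adjusted p = 0.0346, and -1.88, SE 0.52, adjusted p = 0.0144), from 5 and 8 counts in the control libraries. The calls lower in this list fell from 2 to 1 with DESeq2, with at least 10 counts required in every library, which leaves CD82 out, and without either control library or either library of siEA1-1. CBLB, a ubiquitin ligase of the receptors, had 47.0 ± 7.35, 129 ± 10.6 and 61.5 ± 9.65 CPM (SD, n = 2). Its difference between siRNAs was called (-1.06, SE 0.14, edgeR adjusted p = 0.00440), a call that ended without replicate 2 of siEA1-1.

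Of 18 adaptors and members of the RAS, RAF and ERK chain, 8 were called lower and 1 higher in control with each siRNA, against 14.8% and 15.1% of all genes. The list's median log2FC was -0.24 and -0.21. The adaptors GAB1 (-1.09 and -0.91) and GAB2 (-0.80 and -0.81) and the RAS gene NRAS (-0.67 and -0.83) had the largest differences among those lower in control. SOS1, SOS2, PLCG1 and BRAF were also called lower, with log2FC from -0.30 to -0.51. MAP2K1, a kinase that activates ERK, was the exception, higher in control by 0.63 (SE 0.16, edgeR adjusted p = 0.00914) and 0.79 (SE 0.17, adjusted p = 0.00317). Leaving out 1 library lowered the 8 calls to as few as 4, without replicate 2 of the control group, and the MAP2K1 call was lost without replicate 1 of the control group or replicate 2 of siEA1-1.

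Of 10 genes whose transcripts ERK signaling is known to raise, 8 were called higher in control with each siRNA and 0 lower at an adjusted p under 0.05 by edgeR, against 15.1% and 14.8% of all genes. The median log2FC was 1.79 and 1.88, against -0.02 and -0.00014 for all genes tested. This list, like the others around the ligands, was written with earlier results of these data known. Its shares and medians are therefore a description. SPRY4, a feedback inhibitor of the pathway, had 42.3 ± 1.71 CPM in control, 3.59 ± 0.264 with siEA1-1 and 2.12 ± 0.0214 with siEA1-2 (SD, n = 2). Its log2FC was 3.55 (SE 0.21, edgeR adjusted p = 4.00e-07) and 4.31 (SE 0.23, adjusted p = 2.96e-07). CCND1, which encodes cyclin D1, had 1302 and 1376 CPM in control and 96.1 to 205 CPM in the knockdown libraries, with a log2FC of 3.79 (SE 0.26) and 3.13 (SE 0.25). The receptor EPHA2 (3.45 and 3.61) and the transcription factor ETV4 (2.62 and 3.73) were also called higher in control with each siRNA. The smaller differences of ETV5 (1.81 and 1.50), SPRY2 (1.76 and 1.79), DUSP4 (1.40 and 1.97) and EPHA4 (1.73 and 1.41) passed the test as well. DUSP6, an ERK phosphatase, passed it with siEA1-2 but not with siEA1-1 (0.63, edgeR adjusted p = 0.0574, and 1.32, adjusted p = 0.00181), and the replicate block, no filter or the fit of only the 4 libraries compared gave 9 genes called with each siRNA in place of 8, whereas requiring at least 10 counts in every library gave 7. PHLDA1 passed it with neither (0.03 and -0.07).

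**Figure D5:**
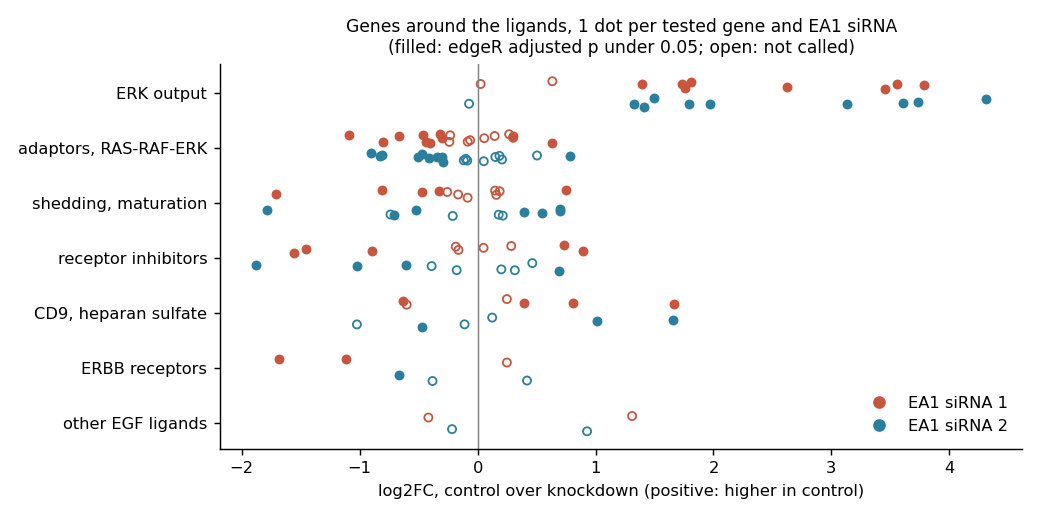
Log2FC of the tested genes around the ligands, with 1 dot per gene and EA1 siRNA, filled where the edgeR adjusted p was under 0.05, and positive values higher in control. Most genes known to be raised by ERK lie to the right (median 1.79 and 1.88, with PHLDA1 near 0). Adaptors and the RAS, RAF and ERK chain center left of 0 (median -0.24 and -0.21). The lists were written with earlier results of these data known.

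Some markers of cell types also differed between the groups. Of 7 melanocytic and neural crest markers, which mark the lineage that clear cell sarcoma resembles, all had a row and 6 were called lower in control with each siRNA, against 14.8% of all genes, and SOX10 was not. Their summed level was 2998 and 2742 CPM in control and 7362 to 11939 CPM in the knockdown libraries. MLANA was nearly absent in control, with 4 and 0 counts. Of 6 fibroblast markers COL1A1 and LUM had rows, with a summed level of 2.69 to 3.43 CPM in control and 8.87 to 22.9 CPM after knockdown. Most of this difference was in LUM (1.28 CPM in control, 7.88 with siEA1-1 and 14.1 with siEA1-2), and COL1A1 was not called (edgeR adjusted p = 0.453 and 0.0974). Epithelial markers, 2 of 6 with a row, summed to at most 1.64 CPM in any library, and blood and endothelial markers, 3 of 6 with a row, to at most 3.08 CPM. The part of these differences in the ligand values was not tested.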

How the data were processed

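Processed data of 6 RNA-seq libraries of SU-CCS-1 cells were used. Per the labels and methods, the authors prepared stranded mRNA libraries, aligned reads to hg38 with BWA-MEM and counted them per gene with featureCounts 1.6.3. The deposited values are raw counts. The annotation and the strand setting of the counting are not given in the sources used here, so reads of overlapping or antisense genes may not be separated. The methods describe 1 siRNA against EA1, whereas the labels list 2, which were kept as separate groups. Alternatives changed the filter, the size factors, the tool (DESeq2 1.42.0), the replicate block or the libraries included.

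Genes were filtered with filterByExpr (minimum count 10, minimum total 15), scaled by TMM and tested across all 6 libraries with the quasi-likelihood test of edgeR 4.0.16 (R 4.3.3), with Benjamini-Hochberg adjustment over 14571 genes and a two-sided threshold of 0.05. Standard errors were derived from the F statistic. The procedure was tested on simulated data. Exon lengths came from GENCODE 44, by union of exons, and promoters from RefSeq. Replicates differed by more than sampling noise (chi-square per degree of freedom 3.87 to 8.84). The smallest differences detectable in BTC and AREG are set by counts of 0 to 21. The ligands and pathway lists were chosen with earlier results of these data known. Genes named were the ligands, the other family members and receptors, up to 4 called genes per list and direction with the largest averaged log2FC, genes differing between siRNAs, cell markers, the 3 nearest patterns and the nearest tested neighbors. SOS1, SOS2, PLCG1, BRAF, ETV5, SPRY2, DUSP4, EPHA4, DUSP6, PHLDA1 and ADAM17 were named beyond these where the rule did not take them, to describe a list further, and a gene of these lists is not reported here by name.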

Additional observations from a re-analysis of the deposited data

Results flagged for a closer look

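In 4 genes around the ligands the difference between the siRNAs was itself called by edgeR over all genes tested, against 2.24% of all genes. They were 1 of 3 receptors, 2 of 11 shedding genes and 1 of 9 genes of receptor inhibition and turnover. The other lists around the ligands held 0 at an adjusted p under 0.05. siEA1-2 minus siEA1-1 was -1.30 for ERBB3 (200 ± 42.2 CPM in control, 640 ± 78.6 with siEA1-1 and 260 ± 35.6 with siEA1-2, SD, n = 2), and it kept its call under every alternative run. For CBLB it was -1.06, with a call that ended without replicate 2 of siEA1-1 (edgeR adjusted p = 0.0739). For FRMD8 it was -0.78 and for ADAM15 -0.55, on the log2 scale. The fold against control of ERBB3 and CBLB was larger with siEA1-1, and they were called against control only with that siRNA. With siEA1-2 their edgeR adjusted p was 0.0742 and 0.0560. FRMD8 and ADAM15 were called against control only with siEA1-2.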

How the results depend on the processing

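The labels do not say what a replicate number stands for, and the libraries were not taken as paired. Deviations of same-numbered libraries correlated at 0.130, 0.199 and 0.144 for the 3 pairs of groups, each over 0.1. These 3 values come from the same 6 libraries and only 2 replicate numbers, and they are a hint from the data, not the design. With the replicate number as a block, the HBEGF log2FC was 3.38 and 2.66, that of NRG1 3.90 and 4.07 and that of TGFA 0.84 and 1.09. The block raised the genes called higher with siEA1-2 than with siEA1-1 from 210 to 530 and those called lower from 116 to 323. With each siRNA it raised the genes called higher in control from 2200 to 2460 and those called lower from 2157 to 2405. In the lists, ERBB receptors called lower in control rose from 1 to 2 and inhibitors called lower from 2 to 3. The ERK output genes called higher rose from 8 to 9.

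With DESeq2, 326 genes were higher with siEA1-2 than with siEA1-1, the shedding and inhibitor genes called higher in control were 0 in each list in place of 1, the inhibitors called lower were 1 in place of 2, and the surface partners called lower 0 in place of 1. Testing only the 4 libraries compared gave 0 shedding and 0 inhibitor genes higher. Requiring at least 10 counts in every library gave 1 inhibitor lower, and it left AREG and NRG1 without a value. On CPM in place of CPM per kb, HBEGF made up 75.6% of the ligand sum in control in place of 85.6%.

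Leaving out 1 library at a time gave 1892 to 3075 genes lower in control than with siEA1-1, 1767 to 2543 with siEA1-2, 1384 to 2025 with each and 2030 to 3146 with their mean, the lowest in each case without replicate 2 of the control group (the count with siEA1-1 was also 1913 without its replicate 2). Calls between the siRNAs ranged from 20 to 471 higher and 13 to 317 lower, lowest without replicate 2 of siEA1-1 and highest without replicate 2 of siEA1-2. In the lists, receptors called lower ranged from 1 to 3, shedding genes higher from 0 to 1 and lower from 1 to 3, inhibitors higher from 0 to 1 and lower from 1 to 2, adaptors higher from 0 to 1 and lower from 4 to 7, and surface partners higher from 1 to 2 and lower from 0 to 1. The filter on low counts was applied anew in each of these runs, so the genes tested could differ from those above. EGFR log2FC against the mean of both siRNAs stayed between 0.27 and 0.43, so EGFR was not among the receptors called lower. The HBEGF log2FC against siEA1-2 ranged from 2.47 to 2.91, NRG1 against siEA1-1 from 3.10 to 6.05 and TGFA against siEA1-1 from 0.45 to 1.32. Each of these 3 ranges was set by leaving out a library of that siRNA group. The AREG bounds ranged from 4.75 to 6.83 and from 4.58 to 6.58, and the BTC ratios from 1.57 to 4.90 and from 1.46 to 7.39, with no value for BTC without replicate 2 of siEA1-1, which leaves 0 counts. No ligand value against control and no called gene of the gene lists reversed direction in any alternative run. Of the single-gene values that were not called, 34 changed sign, 46 times in all and only where 1 library was left out, EGF among them (log2FC against the mean of both siRNAs from -0.55 to 0.07). The cause of these movements was not tested. Depth limits AREG, BTC and the knockdown levels of NRG1.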

Other observations

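The nearest tested genes on the chromosome did not all follow the ligands. ADD2, which encodes an adducin of the membrane skeleton and lies 53.4 kb from TGFA, was higher in control by a log2FC of 3.84 (SE 0.21, edgeR adjusted p = 2.74e-07) and 4.06 (SE 0.21, adjusted p = 2.96e-07), against 0.83 and 1.08 for TGFA. FAM136A, on the other side of TGFA at 145 kb, was higher by 0.42 (SE 0.12, edgeR adjusted p = 0.0135) and 0.35 (SE 0.12, adjusted p = 0.0350). MTHFD2L, a mitochondrial enzyme of folate metabolism 142 kb from AREG, was higher by 0.66 (SE 0.19, edgeR adjusted p = 0.0182) and 0.58 (SE 0.19, adjusted p = 0.0347). PFDN1, 29.7 kb from HBEGF, was called only with siEA1-2 (0.29, edgeR adjusted p = 0.0529, and 0.36, adjusted p = 0.0263). WRN, a DNA helicase 463 kb from NRG1, was higher by 0.73 (edgeR adjusted p = 0.00130) and 0.56 (adjusted p = 0.00699). On the other side of NRG1, 72.2 kb away, ENSG00000247134 was lower in control by -0.94 (SE 0.19, edgeR adjusted p = 0.00221) and -1.20 (SE 0.19, adjusted p = 0.000496). RCHY1, a ubiquitin ligase and the next tested gene beyond AREG and BTC (1024 kb and 685 kb), was lower in control with siEA1-1 (-0.52, SE 0.18, edgeR adjusted p = 0.0421) and was not called with siEA1-2 (-0.31, SE 0.19, adjusted p = 0.226). ANKHD1, 55.2 kb from HBEGF, was not called (0.25, edgeR adjusted p = 0.497, and 0.46, adjusted p = 0.222).

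Of 10321 tested genes matched to an upstream sequence, 16.2% were called higher and 15.7% lower in control with each siRNA. Of the 368 with the whole CRE in that sequence, 76 (20.7%) were called higher and 39 (10.6%) lower. The shares with the AP-1 letters TGAGTCA were 17.2% and 19.0% of 395 genes, with the spaced form TGANNTCA 17.2% and 17.3% of 1041, and with the half-site TGACG 17.2% and 15.2% of 3735. These shares are a description, and AREG is 1 of these genes.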
